A study of Mus musculus with 8 samples.

Results

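Retinoic acid is made, bound, read and destroyed by small gene families, and 9 of these genes were followed in cultured mouse tendon stem cells (TSCs), the multipotent cells that grow out of digested tendon. The set held 3 retinaldehyde dehydrogenases (Aldh1a1, Aldh1a2, Aldh1a3), the hydroxylase Cyp26b1, 2 cellular retinoic acid-binding proteins (Crabp1, Crabp2) and 3 nuclear receptors (Rara, Rarb, Rarg), found by gene symbol among the 19301 genes of the expression table. The 9 genes were chosen from earlier fold changes and FPKM values of the same comparison described here. Their differences between the groups are therefore given as a description, with errors and without a test. Calls among them are counted only beside the same share of all genes, and single genes are given a p only where they lie outside the set. The other gene lists were also chosen with earlier results of these data known, so such a p is not independent support.

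The study asked how a diabetes-like medium changes the TSC transcriptome. Primary TSCs came from the collagenase-digested patellar tendon of C57BL/6J mice and were not sorted. The 4 LG libraries came from cells in low glucose medium (5.5 mM glucose with the vehicle DMSO), and the 4 HFHG libraries from cells in high fat, high glucose medium (raised glucose with 300 µM palmitic acid), each after 4 days. Glucose and palmitic acid differed together and so cannot be told apart, and whether the HFHG medium also held DMSO is not stated. The study describes 4 biological replicates per group, but neither it nor the labels say which animals stand behind each replicate. If the replicates are cultures of the same cells, the p-values measure only the spread between these cultures. In bulk RNA, fewer cells of a type and less RNA per cell cannot be told apart.

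Retinol enters cells, is oxidised to retinal by retinol dehydrogenases and then to retinoic acid by the Aldh1a enzymes. Crabp proteins carry the acid in the cytoplasm, Cyp26 enzymes hydroxylate it for clearance, and the retinoic acid receptors, paired with a retinoid X receptor, switch genes at repeats of a short half-site in DNA. In limb mesenchyme the local balance of synthesis and Cyp26b1 clearance is known to shape the progenitor and skeletal programmes. Several genes of the pathway, among them Rarb and Cyp26a1, are textbook direct targets of the receptors.

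The sequence before the start of 3 of the genes is shown first, because Rarb carries the receptor's own element and because Cyp26b1 and Aldh1a1 differed most among the clearance and synthesis genes. RefSeq windows (GRCm38.p6) of 250 bases before the start were found for 7 of the 9 genes, 12 windows in all. They were searched on both strands for 2 copies of a receptor half-site in the same orientation with a spacer of 5 (DR5), 2 (DR2) or 1 base (DR1), and on the gene's strand for TATAAA. The half-site searched was AGGTCA, where the third letter could also be a T. A first letter of G, as in GGTTCA, was accepted too. Capitals mark these letters in the stretches below, which are limited to bases outside annotated GENCODE exons, or for Rarb to 30 bases around the repeat.
Rarb, chr14:16575506-16575535, minus strand: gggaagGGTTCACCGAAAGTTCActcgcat
Cyp26b1, chr6:84593909-84594060, minus strand: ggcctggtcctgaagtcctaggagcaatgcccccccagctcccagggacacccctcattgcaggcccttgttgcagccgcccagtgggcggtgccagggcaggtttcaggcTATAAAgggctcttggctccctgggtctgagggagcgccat
Aldh1a1, chr19:20601718-20601960, plus strand: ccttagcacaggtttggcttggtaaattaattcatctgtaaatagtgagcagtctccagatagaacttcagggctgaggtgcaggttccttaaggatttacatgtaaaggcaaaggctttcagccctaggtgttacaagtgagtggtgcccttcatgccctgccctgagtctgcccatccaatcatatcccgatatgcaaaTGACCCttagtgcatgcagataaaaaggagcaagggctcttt

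The Rarb stretch held a DR5 from 53 to 37 bases before the RefSeq start, inside an exon of the GENCODE transcript models Rarb-201 and Rarb-207, which begin further upstream. A DR5 of these letters was found in 29 of 32851 windows of the same length (0.0883%), and in no other of the 12 windows of the set. A single half-site was far more common, in 38.6% of all windows. The printed Aldh1a1 window held 1 on its minus strand from 49 to 44 bases before that RefSeq start. The other Aldh1a1 window, before a start further upstream (20492333 to 20492582), held none and is not shown. Windows of Rara, Rarb and Rarg also held half-sites. The Cyp26b1 window held TATAAA from 139 to 134 bases before the RefSeq start, as did 7.59% of windows somewhere, and no half-site. DR1 and DR2 repeats were found in 0.164% and 0.174% of windows and in none of the 12 windows of the set. Aldh1a3 and Crabp2 had no window and were not searched. A match of letters describes the sequence and does not show that a receptor was bound there.

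Expression was read as FPKM, reads scaled by gene length and by a read total of the library. The totals implied by the FPKM were 34308108 to 37362725 reads, so differences in this depth were small. Of each total, 99.82% to 99.85% lay on the listed genes, and which reads it counts is not given in the sources used here. A gene was tested when it reached 0.5 FPKM in at least 4 libraries. Of 11710 genes tested by limma on log2(FPKM + 0.1), 64.8% passed a Benjamini-Hochberg adjusted p of 0.05, 34.0% higher and 30.8% lower in HFHG. The first principal component (81.0% of the variance) separated the 2 groups, and the second (4.18%) set LG replicate 4 apart from the other LG libraries.

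The filter kept 8 of the 9 genes and left out Aldh1a3. Cyp26b1 was kept through HFHG, since 1 LG library alone reached 0.5 FPKM. Among these 8, 5 were higher and 2 lower in HFHG by the same criterion, 4 were more than 2-fold higher and 2 more than 2-fold lower, and 7 had groups that did not overlap. The corresponding shares of all tested genes were 34.0% and 30.8%, 3.68% and 1.65%, and 59.2%. Since the 9 genes were picked from this contrast, nothing is read from these counts. Their median log2 fold change was 0.91, beside 0.02 over all tested genes. Without LG replicate 4, the log2 fold changes were 3.47 for Aldh1a1, 1.92 for Cyp26b1, 1.87 for Crabp1, 1.63 for Aldh1a2, 0.21 for Rara, -0.01 for Rarg, -1.42 for Crabp2 and -1.86 for Rarb, and the same counts of 5 higher and 2 lower were obtained.

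**Figure D1:**
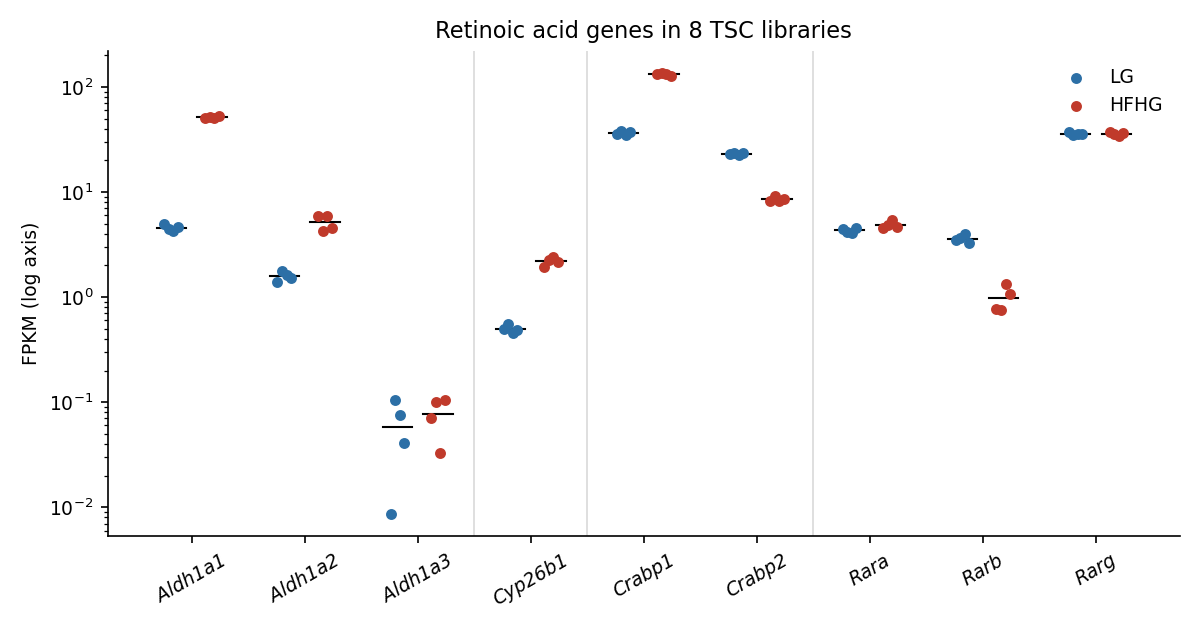
FPKM on a log axis for the 9 genes in each of the 4 LG (blue) and 4 HFHG (red) libraries, with a bar at each group mean. Aldh1a1, Aldh1a2, Cyp26b1 and Crabp1 sit higher in HFHG, Crabp2 and Rarb sit lower, and the groups of Rarg and Aldh1a3 overlap.

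The synthesis enzymes were led by Aldh1a1, a cytosolic retinaldehyde dehydrogenase that is also widely used as a marker of stem cells (GRCm38 chromosome 19, 20492715 to 20643465, plus strand). In order of replicate, its FPKM was 50.7, 51.1, 50.3 and 52.7 under HFHG and 4.95, 4.48, 4.22 and 4.59 under LG. All 4 HFHG libraries stood far above all 4 LG libraries, and the spread within a group was at most 6.63% of its mean. The means were 51.2 ± 1.05 and 4.56 ± 0.303 FPKM (SD, n = 4 each), an 11.2-fold difference. On the log2 scale this was 3.46 (SE 0.05), rank 7 of the 11710 genes from the highest. Between 4738 and 5044 reads in HFHG and between 392 and 445 reads in LG lay behind these values.

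Aldh1a2, the dehydrogenase that supplies most embryonic retinoic acid (chromosome 9, 71215789 to 71296243, plus strand), had 5.86, 4.24, 5.96 and 4.52 FPKM in HFHG and 1.38, 1.75, 1.62 and 1.53 FPKM in LG. The HFHG libraries fell into a higher pair, replicates 1 and 3, and a lower pair, replicates 2 and 4, and the lower pair was still above every LG library. The mean level was 3.28-fold higher in HFHG (5.15 ± 0.892 against 1.57 ± 0.158 FPKM, SD, n = 4), with a log2 fold change of 1.64 (95% interval 1.39 to 1.90).

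Aldh1a3, the third retinaldehyde dehydrogenase (chromosome 7, 66390890 to 66427517, minus strand), was close to the detection limit. Its reads numbered 9, 12, 4 and 13 in HFHG and 1, 13, 9 and 5 in LG, and the FPKM never exceeded 0.105. The groups overlapped fully. Summed over libraries, 38 reads against 28 gave a ratio of 1.32 after correction for depth, with an exact interval of 0.791 to 2.24 that covers counting error only. A difference of Aldh1a3 was not detectable at this depth.

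Summed over the family, Aldh1a transcripts averaged 56.4 ± 0.767 FPKM in HFHG and 6.19 ± 0.199 FPKM in LG (SD, n = 4). Aldh1a1 made up 73.7% of that sum in LG and 90.7% in HFHG. The share of Aldh1a2 was 25.4% in LG and 9.12% in HFHG, although its own level was higher in HFHG. The implied length of Aldh1a1 was 2619 bases against 4937 bases of annotated exon, and that of Aldh1a2 was 2264 bases in each. The sums and shares depend on these lengths.

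**Figure D2:**
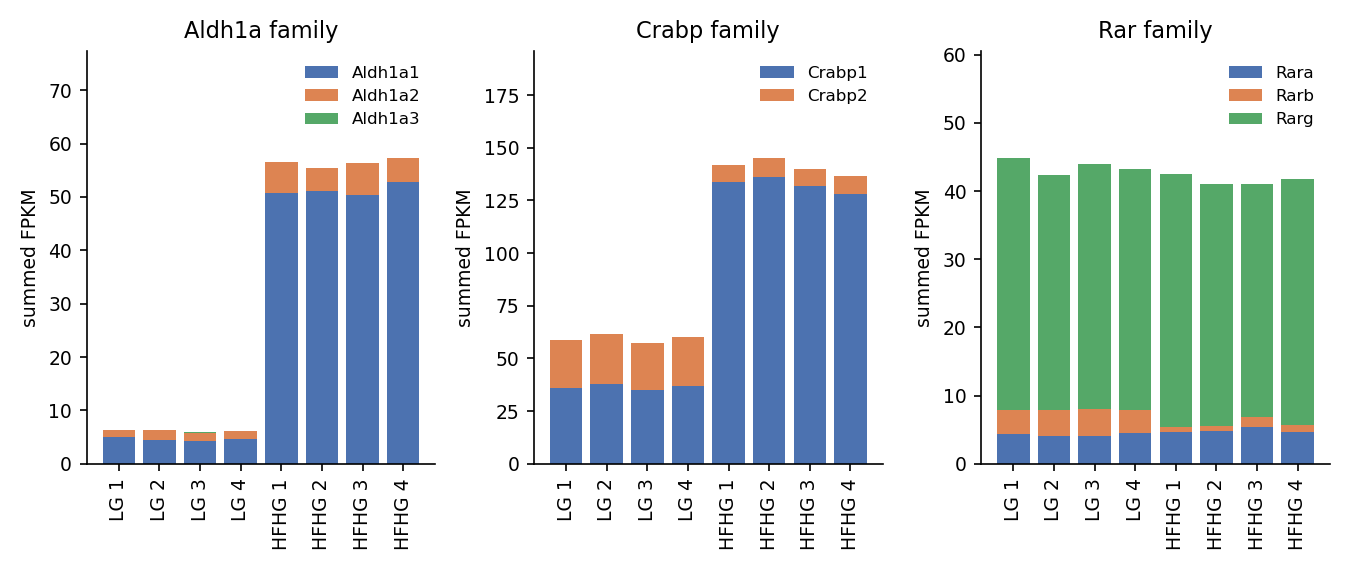
Stacked bars of summed FPKM in each library for the Aldh1a, Crabp and Rar families, coloured by gene, LG libraries on the left and HFHG on the right of each panel. The Aldh1a sum is 5.92 to 6.34 FPKM in LG and 55.5 to 57.3 in HFHG, the Crabp sum is 57.3 to 61.5 and 137 to 145, and the Rar sum is 42.4 to 44.9 and 41.0 to 42.5.

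Clearance was represented by Cyp26b1, the cytochrome P450 that hydroxylates retinoic acid in limb and skeletal tissue (chromosome 6, 84571414 to 84593908, minus strand). Its FPKM was 1.95, 2.28, 2.39 and 2.14 in HFHG and 0.50, 0.556, 0.457 and 0.488 in LG. Every HFHG library was at least 3 times the level of every LG library. The means of 2.19 ± 0.191 and 0.50 ± 0.0414 FPKM (SD, n = 4) differed 4.38-fold, a log2 fold change of 1.93 (SE 0.11), which ranked 58 of 11710. The reads were 909 to 1076 in HFHG and 202 to 252 in LG. The deposited FPKM implied a gene length of 12481 bases, while the exons of the GENCODE model cover 5352 bases. The level of Cyp26b1 relative to other genes and its passing of the filter depend on this length. The 4.38-fold ratio of means does not. The log2 fold change and its rank do, because 0.1 was added to the FPKM. With a pseudocount of 1 the log2 fold change was 1.09, and with 0.01 it was 2.11.

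Synthesis and clearance transcripts were thus both more abundant in HFHG, by different factors. The ratio of Aldh1a1 to Cyp26b1 FPKM was 9.15 ± 0.784 in LG and 23.5 ± 2.22 in HFHG (SD, n = 4), with no overlap between groups. The ratio of Aldh1a2 to Cyp26b1 was 3.14 ± 0.323 in LG and 2.37 ± 0.497 in HFHG, and its ranges overlapped. The other clearance enzymes, Cyp26a1 and Cyp26c1, were below the filter, at no more than 0.188 and 0.239 FPKM in any library.

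The binding proteins moved in opposite directions. Crabp1, a small cytosolic carrier linked to retinoic acid sequestration and breakdown (chromosome 9, 54764748 to 54773110, plus strand), had 134, 136, 132 and 128 FPKM in HFHG and 35.8, 37.9, 34.9 and 36.8 FPKM in LG. All HFHG libraries were above all LG libraries, at 3.64-fold the mean (132 ± 3.30 against 36.3 ± 1.32 FPKM) and a log2 fold change of 1.86 (SE 0.03). It was the most abundant of the 9 genes in HFHG, above 96.1% of tested genes.

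Crabp2, the carrier known for delivering retinoic acid to its nuclear receptors (chromosome 3, 87948666 to 87953376, plus strand), had 8.24, 9.23, 8.21 and 8.57 FPKM in HFHG and 22.9, 23.6, 22.5 and 23.2 FPKM in LG. Each HFHG library was below each LG library. The mean level was 2.69-fold higher in LG, a log2 fold change of -1.42 (SE 0.04). Crabp1 exceeded Crabp2 by 1.58 ± 0.0242 times in LG and by 15.5 ± 0.758 times in HFHG (SD, n = 4). Crabp1 accordingly made up 61.2% of Crabp transcripts in LG and 93.9% in HFHG. The implied length of Crabp2 was 900 bases against 1322 bases of annotated exon, and that of Crabp1 was 802 bases in each.

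Of the receptors, Rarb, the subtype whose own promoter carries the DR5 shown above (chromosome 14, 16430839 to 16819156, minus strand), differed most. It had 0.766, 0.751, 1.33 and 1.06 FPKM in HFHG and 3.53, 3.69, 3.97 and 3.24 FPKM in LG. HFHG replicates 3 and 4 were higher than replicates 1 and 2, and all 4 lay below every LG library. The mean was 3.69-fold higher in LG (3.60 ± 0.302 against 0.978 ± 0.276 FPKM, SD, n = 4), with a log2 fold change of -1.81 (SE 0.15). The reads were 91 to 164 in HFHG and 395 to 481 in LG.

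The annotated 3′ end of Rarb overlaps 4624 bases of Top2b, a topoisomerase gene on the opposite strand. Top2b had 21.1 to 23.6 FPKM in HFHG and 15.1 to 17.7 FPKM in LG, the reverse of Rarb. The strand setting of the counting was not given in the sources used here, so reads of overlapping genes may not have been separated.

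Rara, the broadly expressed receptor (chromosome 11, 98927818 to 98974942, plus strand), had 4.58, 4.82, 5.46 and 4.68 FPKM in HFHG and 4.43, 4.13, 4.09 and 4.58 FPKM in LG. The lowest HFHG and the highest LG library met at 4.58 FPKM, and the mean difference was 1.13-fold, a log2 fold change of 0.18 (95% interval 0.03 to 0.33).

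Rarg, the receptor prominent in cartilage and skin (chromosome 15, 102234938 to 102257517, minus strand), had 37.1, 35.4, 34.3 and 36.0 FPKM in HFHG and 36.9, 34.6, 36.0 and 35.4 FPKM in LG. The groups overlapped throughout, with means of 35.7 FPKM in each. Its log2 fold change was 0.00, with a 95% interval of -0.07 to 0.07. Rarg made up 81.9% of receptor transcripts in LG and 85.9% in HFHG, while the share of Rarb was 8.26% in LG and 2.36% in HFHG. The summed level of the receptors was 43.6 ± 1.05 FPKM in LG and 41.6 ± 0.693 FPKM in HFHG (SD, n = 4). The implied length was 3423 bases for Rarb and 3399 for Rarg, against 5265 and 4261 bases of annotated exon. The receptor shares and sums depend on these lengths.

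Per length, the order of mean FPKM in LG was Crabp1, Rarg, Crabp2, Aldh1a1, Rara, Rarb, Aldh1a2, Cyp26b1 and Aldh1a3. The order in either group depends on the implied lengths. Crabp1 and Rarg did not differ beyond their ranges, nor did Aldh1a1 and Rara. In HFHG the order was Crabp1, Aldh1a1, Rarg, Crabp2, Aldh1a2, Rara, Cyp26b1, Rarb and Aldh1a3, with overlapping ranges only for Aldh1a2 and Rara. Aldh1a1 was thus at rank 4 in LG, above 36.5% of tested genes, and at rank 2 in HFHG, above 88.7%. Rarb went the other way, from above 31.3% of tested genes in LG to above 8.14% in HFHG.

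Beyond these genes, 52 other genes of retinoid handling and signalling were in the table and 35 passed the filter. In limma, 15 of the 35 were higher and 9 lower in HFHG and 11 did not pass, beside 34.0% and 30.8% over all tested genes. Their median log2 fold change was 0.09. Aldh1a7, counted as higher, passed the filter through HFHG alone. The 17 genes below the filter never exceeded 0.477 FPKM.

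For retinol uptake and storage, 3 of 5 tested genes were higher and 1 was lower, against 34.0% and 30.8% of all tested genes, the shares that also stand behind the lists that follow. Rbp4, the secreted retinol carrier, rose from 7.57 ± 0.663 to 9.72 ± 0.684 FPKM (SD, n = 4; log2 fold change 0.36, limma adjusted p = 0.000516). Lpl, the lipoprotein lipase that also releases retinyl esters, rose from 148 ± 2.74 to 179 ± 2.91 FPKM (log2 fold change 0.28, limma adjusted p = 3.56e-07). The retinol receptor Stra6 and the esterifying enzyme Lrat were below the filter, at no more than 0.129 and 0.0317 FPKM.

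In the interconversion of retinol and retinal, 5 of 14 tested genes were higher, 6 were lower and 3 did not pass. Rdh10, the main retinol dehydrogenase of the embryo, rose from 2.45 ± 0.649 to 4.76 ± 0.460 FPKM (log2 fold change 0.96, limma adjusted p = 7.12e-05). Rdh12, a retinal reductase best known from photoreceptors, rose from 0.799 ± 0.236 to 2.06 ± 0.190 FPKM (log2 fold change 1.29, limma adjusted p = 1.19e-05). Dhrs3, which returns retinal to retinol and is itself induced by retinoic acid, fell from 13.9 ± 0.315 to 11.1 ± 0.172 FPKM (log2 fold change -0.32). Adh7, an alcohol dehydrogenase active on retinol, fell from 7.01 ± 0.583 to 3.65 ± 0.513 FPKM (log2 fold change -0.93, limma adjusted p = 2.18e-06).

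The list of other enzymes and carriers of retinoic acid also held Aldh1a7, a rodent paralog next to Aldh1a1 on chromosome 19 (20692953 to 20727562). Whether its enzyme makes retinoic acid was not examined here. Aldh1a7 had 2.58 to 3.03 FPKM in HFHG and 0.0668 to 0.273 FPKM in LG, a log2 fold change of 3.42. All LG values were under the 0.5 FPKM of the filter, so the gene was tested only through the group where it was high and its call enters only the count above. Aldh1a1 exceeded it 17.3 to 19.8 times in HFHG and 16.8 to 67.0 times in LG. Paralogs can share reads, but the sequences of Aldh1a1 and Aldh1a7 were not compared. The handling of shared reads is not given in the sources used here, so the Aldh1a7 value is uncertain. Fabp5, which carries retinoic acid to Ppard, fell from 92.6 ± 3.36 to 76.7 ± 0.757 FPKM (log2 fold change -0.27, limma adjusted p = 3.19e-06). Cyp1b1, which can oxidise retinol, rose from 11.3 ± 0.296 to 13.5 ± 0.296 FPKM (log2 fold change 0.25, limma adjusted p = 8.94e-05). Aldh8a1 was below the filter.

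Of 13 tested receptor partners and coregulators 5 were higher, near the 34.0% of all genes, 1 was lower and 7 did not pass. Their log2 fold changes spanned -0.10 to 0.37. Rxra, a retinoid X receptor that pairs with the retinoic acid receptors, rose from 20.5 ± 0.883 to 24.6 ± 1.16 FPKM (log2 fold change 0.26, limma adjusted p = 0.000195). Nrip1, a corepressor that retinoic acid induces, rose from 3.07 ± 0.176 to 3.99 ± 0.15 FPKM (log2 fold change 0.37, limma adjusted p = 0.000294).

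**Figure D3:**
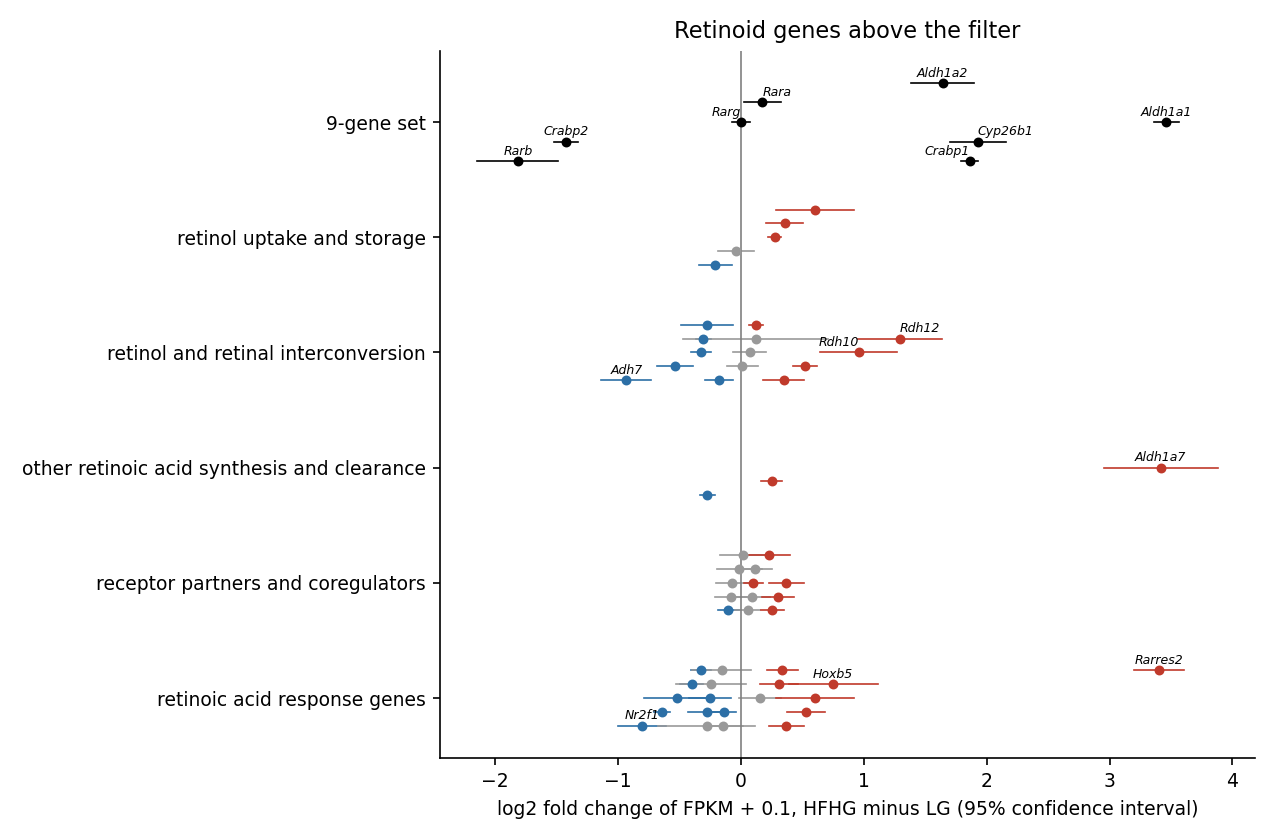
Log2 fold changes of FPKM + 0.1 (HFHG minus LG, points) with 95% confidence intervals (lines) for the 8 genes of the set above the filter (black) and for the other retinoid lists (red higher, blue lower at adjusted p below 0.05, grey not past it). The set spans -1.81 to 3.46, while the other lists mostly lie between -1 and 1, with Rdh12, Aldh1a7 and Rarres2 beyond.

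Of 30 genes commonly described as raised by retinoic acid 20 passed the filter, of which 7 were higher, 8 lower and 5 did not pass, close to the 34.0% and 30.8% of all tested genes, with a median log2 fold change of -0.15. Rarres2, the chemerin gene, had the largest difference of the list, with a log2 fold change of 3.40, and overlaps Lrrc61 on the opposite strand (3.75 to 4.26 FPKM in HFHG, 3.5 to 3.96 in LG). Hoxb5, a homeobox gene, rose from 0.792 ± 0.151 to 1.41 ± 0.302 FPKM (log2 fold change 0.75, limma adjusted p = 0.00157). Nr2f1, the orphan receptor COUP-TFI, fell from 3.36 ± 0.233 to 1.89 ± 0.202 FPKM (log2 fold change -0.80, limma adjusted p = 4.9e-06). The classical targets Cyp26a1, Stra8 and Hoxb1 were all below the filter, at no more than 0.188 FPKM in any library.

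The genes whose log2 FPKM followed Cyp26b1 most closely over the 8 libraries were Adamts12, Sidt2, St3gal2, H6pd and Prdm1, with Pearson's r of 0.998 to 0.999. Among the other genes of the set, r with Cyp26b1 was 0.996 for Crabp1, 0.995 for Aldh1a1, 0.974 for Aldh1a2, 0.760 for Rara, -0.092 for Rarg, -0.954 for Rarb and -0.990 for Crabp2. The 8 points fall into 2 groups that lie far apart, so these correlations describe the groups more than the libraries within them.

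Markers of several cell types moved with the groups. Tendon and fibroblast genes marked all libraries (Col1a1 522 to 541 FPKM in HFHG and 202 to 211 in LG), with 11 of 14 higher and 2 lower in HFHG, beside 34.0% and 30.8% of all tested genes. Among tendon regulators and products, Scx was at 1.53 to 2.88 FPKM in HFHG and 0.983 to 1.76 in LG and Tnmd at 1.01 to 1.19 and 0.220 to 0.916. The regulators Mkx (6.05 to 7.35 and 7.77 to 9.30) and Egr1 (15.0 to 17.0 and 20.8 to 21.4) were the 2 lower genes. Macrophage genes were also expressed, and 8 of 9 tested were lower and none higher in HFHG, beside 30.8% and 34.0% of all tested genes. Their sum without Lyz2 was 106 to 111 FPKM in HFHG and 157 to 166 in LG. Lyz2 alone, the most abundant of them, was 1615 to 1662 FPKM in HFHG and 1736 to 1811 in LG, a log2 fold change of -0.11. Cd163 was at most 0.0439 FPKM. Among the mural genes 3 of 3 tested were higher (34.0% of all tested genes), and 1 of 4 Schwann genes was higher. The sum of cartilage and synovial genes, mostly Prg4, was 90.9 to 99.4 FPKM in HFHG and 148 to 153 in LG. Without Prg4 that sum was 5.38 to 6.65 FPKM in HFHG and 4.83 to 6.06 in LG. Of the 2 tested genes of this list 1, Prg4, was lower and 1 did not pass. Of endothelial genes 1 was higher and 1, Vwf, which passed the filter through LG alone, was lower, with a summed level of at most 2.23 FPKM, and no muscle or adipocyte gene passed the filter. The part of these differences in the retinoic acid genes was not tested.

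**Figure D4:**
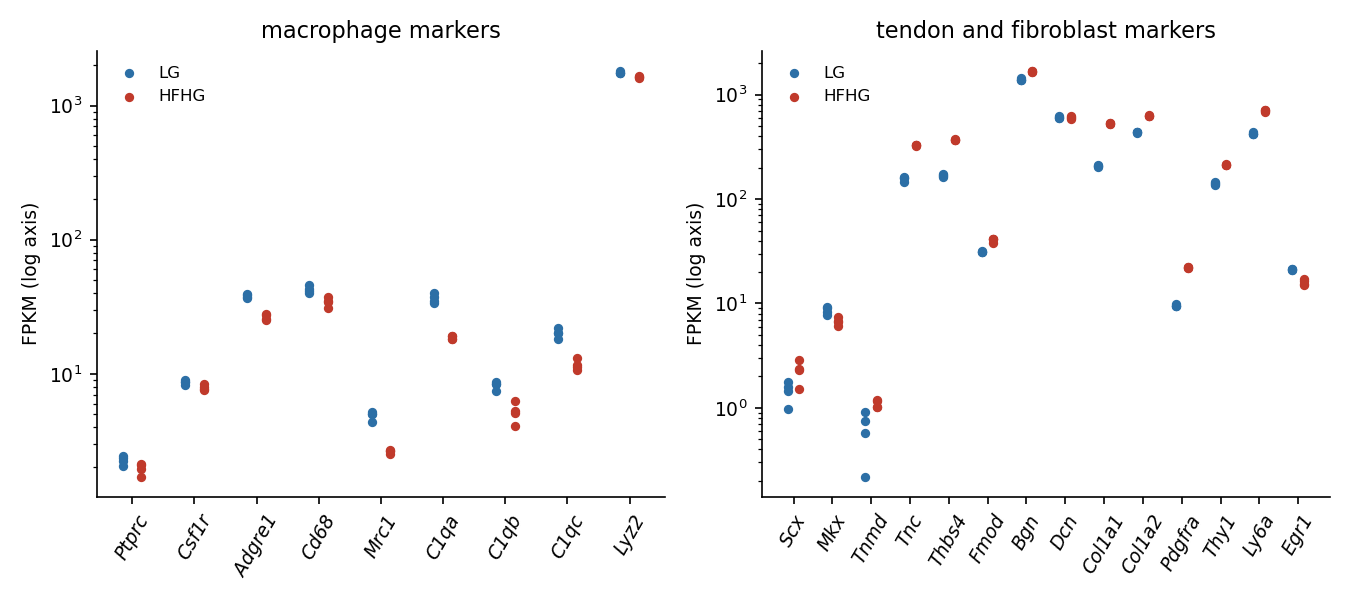
FPKM on a log axis of macrophage markers (left) and tendon and fibroblast markers (right) in the 4 LG (blue) and 4 HFHG (red) libraries, limited to genes above the filter. Adgre1 lies at 25.3 to 27.9 FPKM in HFHG and 36.7 to 39.3 in LG, and Pdgfra at 22.0 to 22.5 and 9.44 to 9.99.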

How the data were processed

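RNA of TSCs was sequenced from stranded mRNA libraries. The submitters' processing notes name HISAT2 2.1.0 and mm10; the counting program, annotation, strand setting and filters are not given in the sources used here. The authors deposited FPKM values per gene and library, with replicates not pooled. Whole reads were recovered from the FPKM for 19301 of 19301 genes (100.0%, within 0.001 reads) and served for depth and for 1 alternative. Groups and replicate numbers came from the labels and doses from the study's methods. Genes with at least 0.5 FPKM in at least 4 libraries were tested with limma 3.58.1 (R 4.3.3) on log2(FPKM + 0.1), with an intensity trend and Benjamini-Hochberg adjustment over 11710 genes, after checks on simulated data. A fold change on this scale understates the change of low genes. Positions come from GENCODE M21 (GRCm38) and promoters from RefSeq. The 9 genes and all lists were chosen with earlier results of these data known. Some genes of the lists are counted but not reported here by name. Apart from these, the text names every gene of the set, the 3 genes of each list with the largest absolute log2 fold change, paralogs of the set, and the 5 genes most correlated with Cyp26b1. Dhrs3, Stra6, Lrat, Stra8, Hoxb1 and the overlapping genes were named after their values were seen. Intervals and limits cover counting error only where they rest on reads.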

Additional observations from a re-analysis of the deposited data

Results flagged for a closer look

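In 50 groups of 4 libraries (25 genes, each in HFHG and LG), 3 held a library whose gap to the nearest other library exceeded Dixon's critical share of the group's range. Chance alone gives about 1 in 20 such groups. None of them concerned the 9 genes of the set. Rxra in LG replicate 3 was at 21.9 FPKM, above 20.02 to 20.26 in the other LG libraries. Hoxb5 in LG replicate 2 was at 0.567 FPKM, below 0.845 to 0.892. Aldh8a1 in LG replicate 3 was at 0.0755 FPKM, with the others at no more than 0.0125, a level of few reads.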

How the results depend on the processing

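In all, 10 other settings and the omission of each library in turn were compared. The numbers of genes higher and lower in HFHG (3983 and 3609) ranged over 3606 to 4692 and 3000 to 4024, and with 1 library left out over 3745 to 3920 and 3432 to 3599. A pseudocount of 1 gave 197 genes over 2-fold higher and 106 over 2-fold lower, in place of 431 and 193. Rescaling libraries to the same sum left 5 of the other pathway genes lower, in place of 9. The log2 fold changes of Aldh1a1, Aldh1a2, Crabp1, Crabp2, Cyp26b1 and Rarb kept their direction under each setting and without each library. Over the 10 settings they spanned 3.23 to 3.52, 1.25 to 1.70, 1.84 to 1.92, -1.44 to -1.33, 1.09 to 2.12 and -1.93 to -1.23. The number of genes of the set counted as higher was 4 to 5, since Rara counted in 6 of 10 settings and without 3 of 8 libraries, namely HFHG replicates 1 and 4 and LG replicate 4. Aldh1a3 moved to 0.56 with a pseudocount of 0.01. Rarg stayed near 0 and changed sign with rescaling to the same sum (0.0585), quantile normalization (0.0542) and voom on recovered reads (2.037e-05, an alternative chosen after seeing the data), and ranged from -0.0197 to 0.0182 with 1 library left out. The causes of these changes were not tested. Deviations of same-numbered libraries correlated at -0.07 to -0.01, so no pairing by number was seen. With 4 libraries per group, this cannot show whether same-numbered cultures shared an animal or a batch. With the replicate number as a block, 3841 genes were higher and 3501 lower, and Rara was the only gene of the set whose call changed. Depth limits Aldh1a3, Cyp26a1 and Cyp26c1.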
